A study of Huso dauricus x Acipenser schrenckii with 16 samples.

Results

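The genes of cholesterol synthesis and their regulators were followed in the ovary of hybrid sturgeon, a farmed fish kept for caviar. Members were the rows of the gene table whose leading protein description named an enzyme or intermediate of the route (such as HMG-CoA, mevalonate, farnesyl, squalene or lanosterol), a sterol sensor or an oxysterol-binding protein. The rule found 66 of 41685 rows. They stood for 36 proteins, of which 30 had 2 rows each and 6 had 1. By role, 4 rows encoded enzymes of the steps up to mevalonate, 8 those from mevalonate to farnesyl diphosphate, 2 those of squalene and 9 those from lanosterol to cholesterol. A further 9 encoded sterol sensors, 24 oxysterol-binding proteins, and 10 were other proteins caught by the same words.

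Cells build cholesterol from acetyl-CoA. HMG-CoA synthase acts early in the route, and mevalonate is then phosphorylated, decarboxylated and joined into farnesyl diphosphate. Squalene synthase and squalene epoxidase act next, and the ring compound lanosterol is then trimmed and reduced to cholesterol. SREBP transcription factors drive these genes when the sterol content of the endoplasmic reticulum is low. SCAP escorts SREBP to the Golgi, and INSIG proteins hold both back when sterols are plentiful. In the ovary, cholesterol is the precursor of steroid hormones and a component of egg membranes, and in mammals the product of lanosterol demethylase is known as a meiosis-activating sterol. Oxysterol-binding proteins carry sterols and phospholipids between membranes.

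All fish were adult females of one cross, in which Huso dauricus gave the mother and Acipenser schrenckii the father, kept under normal breeding conditions. One farm population was ranked high for caviar yield and another low, with 8 ovary libraries from each, so population and yield cannot be told apart. Poly(A) RNA was sequenced, and the files gave 37362125 to 60873931 counts per library. The high-yield libraries formed the pairs 1+5, 2+6, 3+7 and 4+8, whose members were nearly identical across genes. Their Spearman correlation ran from 0.973 to 0.981, and their spread was 4.16 to 5.45 times the Poisson variance. The other 116 pairings of libraries had a correlation of at most 0.960 and a spread of at least 21.6 times. Each such pair was therefore summed and counted as 1 sample, which left 4 high-yield pairs and 8 low-yield libraries. Whether the libraries of such a pair came from different fish was not tested.

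The libraries labelled ovary held the oocyte marker list at 14200 to 72600 CPM (counts scaled to a common library size) in sum, and all of its 65 rows had counts. Low-yield 2 and 5 stood apart from the rest of their group. Their summed markers of fibroblasts and matrix were 767 and 1510 CPM, compared with 110 to 207 among the remaining 6 of low yield and 76.6 to 185 in the high-yield pairs. Their summed leukocyte markers were 100 and 106 CPM, against 7.55 to 24.7 and 12 to 20.7. Their summed oocyte markers were the lowest and the highest of all samples, 14200 and 72600 CPM. In such bulk samples, fewer cells of a type and less RNA per cell cannot be told apart. All levels below are CPM scaled by TMM and compared between samples of the same gene. Levels were not ordered between genes, because the length implied by the deposited FPKM did not follow the length of the gene.

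No member passed the test between high and low yield. The edgeR quasi-likelihood test with Benjamini-Hochberg adjustment over 30009 genes called 0 of 65 tested members at 0.05, and it called 0 genes of the whole table (0%). DESeq2 on the same sums called 85 genes (0.286%) and 0 members, and edgeR on the 16 libraries unsummed called 16 genes (0.0579%) and 0 members. One row of SCAP (LOC117400266) was too low to be tested. Unadjusted p fell below 0.05 in 3 members, against 2557 of all tested genes (8.52%). Of these, 2 members were higher in high yield (5.18% of all genes) and 1 lower (3.35%). The log2 fold changes of high over low yield had a median of -0.04 over the 65 members, with 28 above and 37 below 0. Over all tested genes the median was -0.02, with 14583 above and 15426 below. The members ran from -1.31 to 1.01. Among the 23 enzymes of the route the median was -0.04, with 11 above and 12 below 0.

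**Figure D1:**
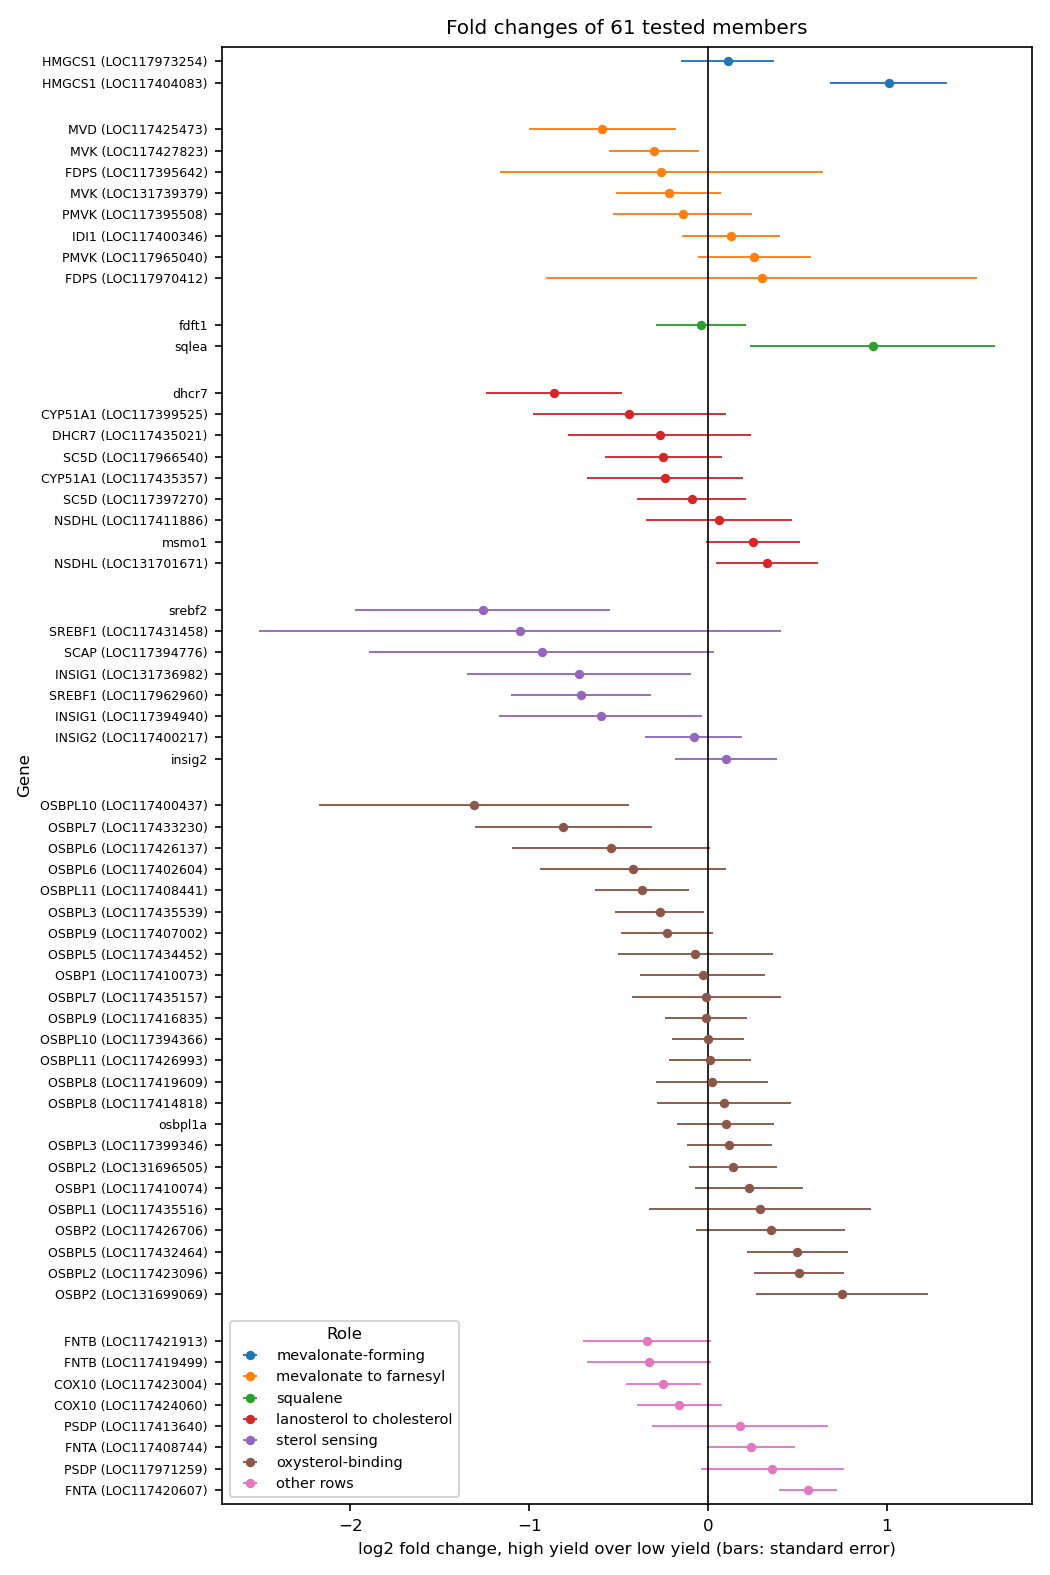
The log2 fold change of high over low yield (x axis) for 61 tested members (y axis), coloured by role, with bars for the standard error. The points lie on both sides of 0, from -1.31 to 1.01, the HMGCS1 rows lie above 0 (the one at 0.11 turns to -0.02 without low-yield 2 and 5) and 7 of the 8 tested sterol sensors lie below it (their median of -0.72 is -0.28 without low-yield 2 and 5), and no member passed the test.

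HMG-CoA synthase (HMGCS1), which makes HMG-CoA in the cytosol, had one row (LOC117404083) at 11.7, 12.8, 4.15 and 7.34 CPM in high-yield pairs 1+5, 2+6, 3+7 and 4+8. The low-yield libraries had 3.35 to 7.65 CPM, with a median of 4.04. Pairs 1+5 and 2+6 were above every low-yield library, whereas pairs 3+7 and 4+8 lay within their range. How many of all genes had this order was not counted. The means were 9.0 ± 4.01 (SD, n = 4) and 4.45 ± 1.34 (SD, n = 8). Its log2 fold change was 1.01 (SE 0.329, unadjusted p = 0.00808), and the edgeR adjusted p was 0.574. The difference thus did not pass the threshold.

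The other HMGCS1 row (LOC117973254) did not share this pattern. It was at 25.2, 25.5, 21.2 and 44.4 CPM in the high-yield pairs and at 14.9 to 36.5 (median 25.7) in low yield, with a log2 fold change of 0.11 (SE 0.26) that was -0.02 without low-yield 2 and 5. Here pair 4+8 was the highest of all samples and low-yield 5 the lowest. The lower row therefore made up 31.7%, 33.5%, 16.4% and 14.2% of the counts of both rows in the 4 pairs, and 10.8% to 23.4% (median 13.8%) in low yield. The share was above all low-yield libraries in pairs 1+5 and 2+6.

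The 8 rows from mevalonate to farnesyl diphosphate ran from -0.59 to 0.30, with 3 above and 5 below 0. Diphosphomevalonate decarboxylase (MVD, LOC117425473), which yields isopentenyl diphosphate, was at 3.81, 2.19, 6.71 and 7.24 CPM in the high-yield pairs and at 2.42 to 11.5 (median 7.56) in low yield. The lowest values were those of pair 2+6 and low-yield 5, and the groups overlapped (log2 fold change -0.59, SE 0.413, and -0.34 without pair 2+6). Mevalonate kinase (MVK), which adds a phosphate to mevalonate, had a row (LOC131739379) at 8.78, 14.2, 14.5 and 15.01 CPM in the pairs and 8.89 to 24.8 (median 13.9) in low yield. Pair 1+5 lay below the other 3 pairs. In the other MVK row (LOC117427823) the pairs had 11.5, 12.8, 9.13 and 10.2 CPM, and low yield 9.08 to 20.5 (median 12.7). Their log2 fold changes were -0.22 (SE 0.295) and -0.30 (SE 0.252).

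Phosphomevalonate kinase (PMVK), the next kinase of the route, was highest in low-yield 5 and lowest in low-yield 2 in both of its rows. In LOC117965040 the pairs had 11.6, 13.9, 13.6 and 16.1 CPM, and low yield ran from 7.13 to 22.8 (median 9.85), with a log2 fold change of 0.26 (SE 0.316). The other row, LOC117395508, had a log2 fold change of -0.14 (SE 0.389). Isopentenyl-diphosphate isomerase (IDI1, LOC117400346), which makes the allylic partner for chain building, was at 32.0, 20.3, 30.0 and 14.02 CPM in the pairs and 13.8 to 34.2 (median 21.6) in low yield. The pairs spanned nearly the whole range of low yield, with a log2 fold change of 0.13 (SE 0.273). A gene on the other strand overlapped this row, and whether counting used the strand is not given in the sources used here.

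Farnesyl pyrophosphate synthase (FDPS), which makes the last compound shared with other prenyl products, was low in both rows. LOC117970412 had 1.99, 3.17, 0.336 and 0 CPM in the pairs and 0 to 3.05 (median 0.939) in low yield, and its count of 0 in pair 4+8 allows up to 0.0334 CPM. Its log2 fold change of 0.30 had an SE of 1.204. The other row, LOC117395642, lay between 0.111 and 3.76 CPM, with a log2 fold change of -0.26 (SE 0.902). Both rows were highest in low-yield 5 among the low-yield libraries, and pairs 1+5 and 2+6 were above pairs 3+7 and 4+8 in both.

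Squalene synthase (fdft1), which commits farnesyl diphosphate to sterols, was at 18.6, 18.7, 29.8 and 20.1 CPM in the high-yield pairs and at 14.1 to 37.3 (median 21.0) in low yield. Pair 3+7 stood above the other pairs and within the low-yield range (log2 fold change -0.04, SE 0.253). Squalene epoxidase (sqlea), a second control point of the route, varied most among the enzymes with at least 10 counts in every sample. It was at 5.79, 8.03, 4.16 and 1.05 CPM in the pairs and at 0.546 to 5.80 (median 1.97) in low yield. The highest sample, pair 2+6, had 14.7 times the CPM of the lowest, low-yield 8. The values overlapped, and its log2 fold change of 0.92 (SE 0.686) had an edgeR adjusted p of 0.679. It was 0.56 without pair 2+6.

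The 9 rows from lanosterol to cholesterol had a median log2 fold change of -0.24, with 3 above and 6 below 0. The lowest was that of dhcr7, whose product reduces dehydrocholesterol to cholesterol in the last step. It was at 8.75, 7.79, 19.6 and 21.4 CPM in the high-yield pairs and at 8.95 to 41.4 (median 27.3) in low yield. Pairs 1+5 and 2+6 were below every low-yield library, and pairs 3+7 and 4+8 were below 6 of the 8, all but low-yield 2 and 5. Those were the 2 low-yield libraries with high matrix markers, at 18.2 and 8.95 CPM. Over all tested genes, pairs 1+5 and 2+6 were both below the other pairs in 28.4%. The share in which they were also below every low-yield library was not counted.

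The means of dhcr7 were 14.4 ± 7.12 (SD, n = 4) and 26.2 ± 9.47 (SD, n = 8). The log2 fold change was -0.86 (SE 0.38, unadjusted p = 0.0393), and the edgeR adjusted p was 0.58. Without low-yield 2 and 5, which held the lowest low-yield values of dhcr7, it was -1.08 with an edgeR adjusted p of 0.276. It was -0.68 without pair 1+5 and -0.65 without pair 2+6. Without pair 3+7 it was -1.04, and without pair 4+8 it was -1.11. The second row of the protein (DHCR7, LOC117435021) followed the same order among the pairs, at 5.39, 3.81, 16.95 and 18.8 CPM, and had 2.52 to 21.3 (median 13.1) in low yield. Its pairs were not set apart from low yield in the same way, and its log2 fold change was -0.27 (SE 0.513). The share of this row in the counts of both was 38.1%, 32.9%, 46.4% and 46.8% in the pairs and 22% to 39.9% (median 33.6%) in low yield.

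Lanosterol demethylase (CYP51A1), a cytochrome P450 that removes a methyl group from lanosterol, differed more within each group than between them. LOC117399525 was at 7.74, 20.3, 32.4 and 58.1 CPM in the high-yield pairs and at 7.398 to 61.3 (median 47.3) in low yield, so that each group held nearly the whole range. LOC117435357 was at 6.59, 7.59, 16.6 and 28.2 CPM in the pairs and 6.36 to 27.6 (median 16.8) in low yield. Both rows were lowest in pair 1+5 among the pairs and in low-yield 5 among the low-yield libraries. Fold changes on the log2 scale were -0.44 (SE 0.539) and -0.24 (SE 0.436). They were -0.11 and 0.01 without pair 1+5, -0.29 and -0.02 without pair 2+6, -0.99 and -0.76 without pair 4+8, and -0.74 and -0.45 without low-yield 2 and 5.

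Methylsterol monooxygenase (msmo1) and the dehydrogenase NSDHL act in turn to remove the remaining methyl groups. NSDHL row LOC117411886 was at 160, 162, 337 and 316 CPM in the high-yield pairs and 81.8 to 369 (median 264) in low yield. Pairs 1+5 and 2+6 were near each other and below pairs 3+7 and 4+8, and low-yield 2 and 5 were the lowest of all samples at 83.3 and 81.8 CPM. The second row (LOC131701671) was at 206, 148, 199 and 182 CPM in the pairs and 61.4 to 202 (median 156) in low yield, so the same order did not hold there. The log2 fold changes were 0.06 (SE 0.409) and 0.33 (SE 0.283), and they were -0.23 and 0.12 without low-yield 2 and 5. For msmo1 the pairs had 34.5, 34.5, 44.3 and 38.6 CPM and low yield 13.6 to 47.5 (median 31.5), with low-yield 2 lowest and a log2 fold change of 0.25 (SE 0.263) that was 0.07 without low-yield 2 and 5.

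Lathosterol oxidase (SC5D), which adds a double bond to the sterol ring, had another order of samples. Its row LOC117966540 was at 10.9, 13.0, 11.8 and 6.66 CPM in the pairs and 5.71 to 20.3 (median 12.4) in low yield. Row LOC117397270 was at 11.0, 13.9, 12.3 and 7.30 CPM, and at 6.48 to 18.0 (median 11.4) in low yield. Pair 4+8 was lowest among the pairs in both rows, and low-yield 5 was the highest of all samples. On the log2 scale the fold changes were -0.25 (SE 0.327) and -0.09 (SE 0.305). The row LOC117397270 overlaps 2 genes on the other strand. Lanosterol synthase was not analysed here.

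**Figure D2:**
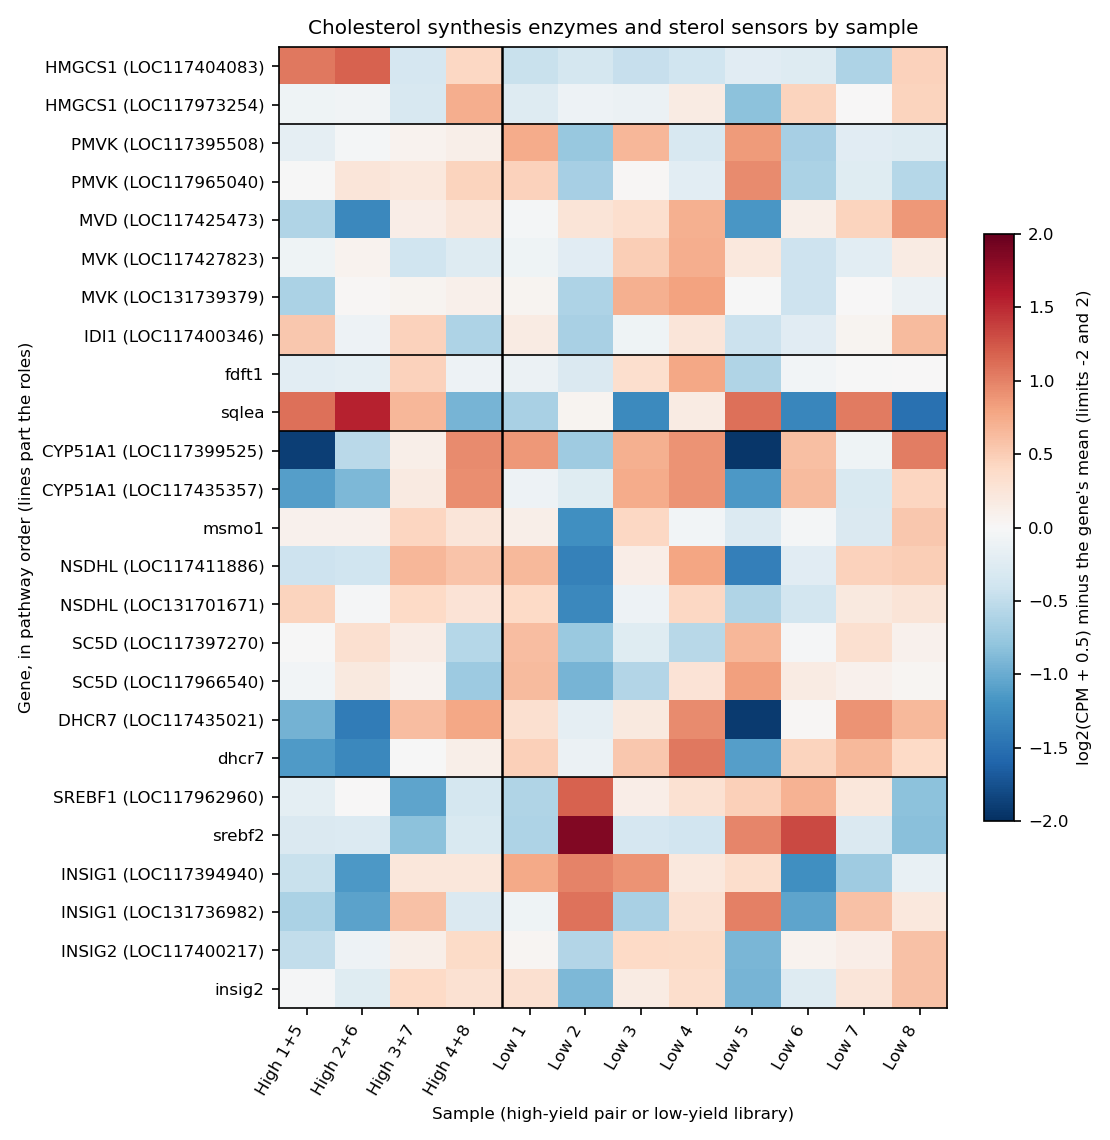
Colour gives log2(CPM + 0.5) minus the mean of the gene over the 12 samples, limited to -2 and 2. Rows are 25 enzymes and sterol sensors with at least 10 counts in every sample. Columns are the 4 high-yield pairs and 8 low-yield libraries. The roles follow the route, with the sensors last, but within a role the rows do not all follow the order of the steps. Blue fields gather in pairs 1+5 and 2+6 and in low-yield 5 for the CYP51A1, DHCR7 and upper NSDHL rows. Among these rows low-yield 2 is clearly blue in CYP51A1 LOC117399525 and the upper NSDHL row, and pale in the others. The srebf2 row is darkest red in low-yield 2.

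The enzymes thus varied within the groups in 2 ways. Pairs 1+5 and 2+6 were both below pairs 3+7 and 4+8 in 12 of the 23 enzymes, 6 of them among the 9 rows from lanosterol to cholesterol. Over all tested genes this order held for 28.4%, and over the 65 members for 28. The opposite order held for 5 of the 23 enzymes, none of them among those 9 rows, against 31.4% of all tested genes. These shares describe the rows and carry no test, since the rows of an enzyme and of a pathway are not independent.

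In low yield, library 5 was the lowest in 10 of the 23 enzymes, against 21.7% of all tested genes, and library 2 in 8, against 18.3%. Both were below the other 6 low-yield libraries in 8 of the 23 enzymes (16.8% of all genes), and both above them in 0 (19.5% of all genes). Low-yield 5 was also the highest in 7 of the 23 enzymes (24.7% of all genes), among them both rows of PMVK, FDPS and SC5D. Library 2 was the highest in none of them (16.9% of all genes). The matrix, leukocyte and endothelial marker sums of these 2 libraries were the highest of their group, and their part in the enzyme levels was not tested.

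Sterol sensors had log2 fold changes from -1.26 to 0.10, with a median of -0.72, and 7 of the 8 tested rows lay below 0. None passed the test. Without low-yield 2 and 5 the median was -0.28, with 7 of 8 below 0 and a range of -0.60 to 0.52. These were not the same 7 rows. The row insig2 turned from 0.10 to -0.13, and the 1 row then above 0 had been below it in the main fit. Over all tested genes, 15426 of 30009 lay below 0 in the main fit and 13444 of 28146 without low-yield 2 and 5. SREBP-1, INSIG1 and INSIG2 gave 2 rows each, so the 8 sensor rows are not independent. SREBP-2 (srebf2), the SREBP that chiefly drives cholesterol genes in mammals, was at 1.13, 1.16, 0.623 and 1.11 CPM in the high-yield pairs and at 0.621 to 6.69 (median 1.11) in low yield. The pairs lay at the level of 5 of the low-yield libraries, and low-yield 2, 5 and 6 were higher at 6.69, 3.43 and 4.49 CPM. The log2 fold change of -1.26 (SE 0.711) had an edgeR adjusted p of 0.616. It was -0.60 without low-yield 2 and 5.

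SREBP-1 (SREBF1), better known for fatty acid synthesis, had a row (LOC117962960) at 6.04, 7.00, 3.09 and 5.36 CPM in the pairs and at 3.70 to 16.3 (median 8.48) in low yield. Low-yield 2 was again the highest sample. The log2 fold change was -0.71 (SE 0.391, edgeR adjusted p = 0.614), and -0.46 without low-yield 2 and 5. The second row (LOC117431458) was at 0 to 3.51 CPM, highest in low-yield 5. SCAP (LOC117394776) was at 0.598, 0.630, 0.563 and 0.834 CPM in the pairs and 0 to 3.02 (median 1.24) in low yield, where library 2 was highest. Its log2 fold change of -0.93 (SE 0.963) was -0.18 without low-yield 2 and 5. In low-yield 1 its count of 0 allows up to 0.0923 CPM.

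The INSIG proteins, which hold the SCAP-SREBP complex in the endoplasmic reticulum, were lower in pairs 1+5 and 2+6 than in the other pairs in all 4 of their rows. They differed in low-yield 2, the highest of its group for both INSIG1 rows and the second lowest for both INSIG2 rows. INSIG1 (LOC131736982) was at 0.879, 0.517, 2.71 and 1.25 CPM in the pairs and 0.533 to 4.06 (median 2.06) in low yield, with a log2 fold change of -0.72 (SE 0.626). That value was -0.28 without low-yield 2 and 5, -0.44 without pair 2+6 and -1.30 without pair 3+7. For INSIG2, the row insig2 was at 70.2, 60.5, 94.7 and 88.5 CPM in the pairs and 37.1 to 107 (median 82.5) in low yield. The row LOC117400217 was at 40, 52.7, 61.5 and 73.7 CPM, and at 29.6 to 84.9 (median 60.8) in low yield. Both INSIG2 rows were lowest in low-yield 5. Their log2 fold changes were 0.10 (SE 0.286) and -0.08 (SE 0.271), and -0.13 and -0.28 without low-yield 2 and 5.

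Low-yield 2 was thus the highest low-yield library in 5 of the 8 tested sensor rows and in 0 of the 23 enzymes, against 16.9% of all tested genes. It held the highest granulosa marker sum, 56.5 CPM, where the rest of its group had 18.8 to 26.5 and the pairs 11.8 to 18.4. Summed markers of theca and steroid cells were 28.6 CPM in low-yield 2 and 41.2 in low-yield 5, with 2.5 to 7.22 in the rest of low yield and 7.02 to 14.1 in the pairs. Low-yield 5 was the highest low-yield library in 1 sensor row. Matrix, leukocyte and endothelial marker sums were also high in both libraries. The part of any of these cells in the sensor levels was not tested.

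**Figure D3:**
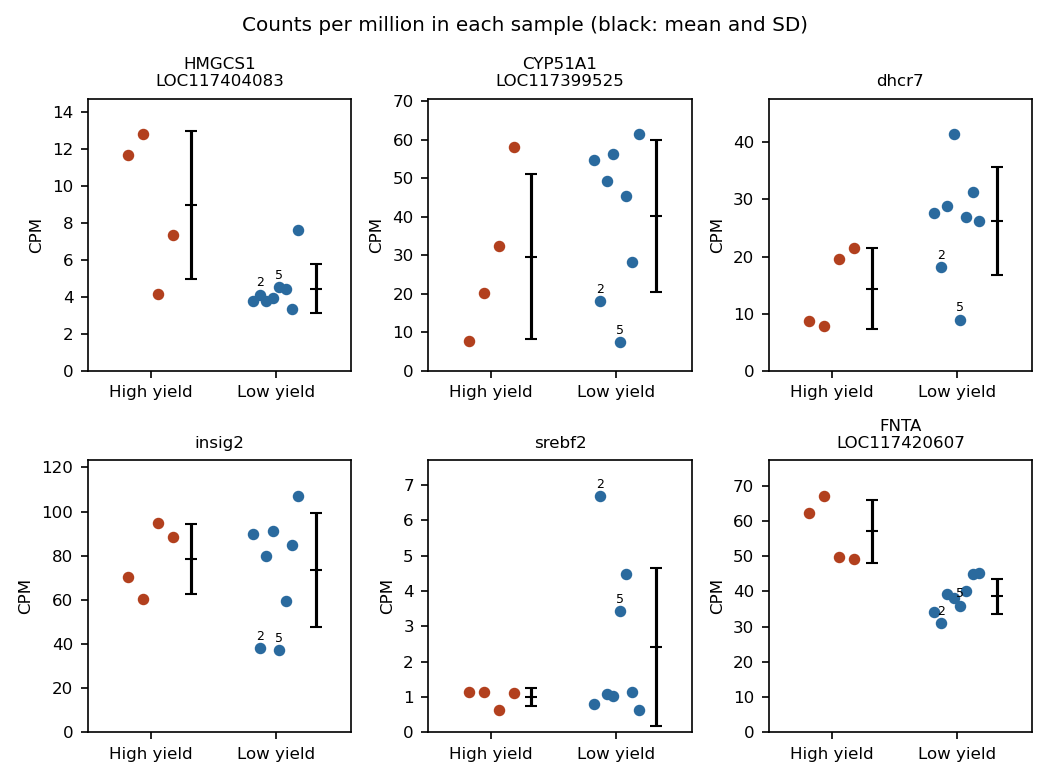
CPM (y axis, from 0) of 6 members in each high-yield pair (red) and each low-yield library (blue, with libraries 2 and 5 numbered), with the mean and SD in black. FNTA LOC117420607 is the member whose groups do not overlap, at 49.3 to 67.1 against 30.9 to 45.3 CPM, and the CYP51A1 row spans 7.398 to 61.3 CPM across both groups.

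The 24 oxysterol-binding rows had a median log2 fold change of 0.01, with 12 above and 12 below 0, and 0 had an unadjusted p under 0.05. On the higher side the smallest p belonged to OSBPL2 (LOC117423096) and OSBPL5 (LOC117432464), lipid carriers of this family. OSBPL2 was at 21.5, 20.3, 9.30 and 14.9 CPM in the pairs and 8.09 to 15.7 (median 11.7) in low yield, and its log2 fold change was 0.51 with an SE of 0.25 (edgeR adjusted p = 0.587). OSBPL5 was at 11.6, 11.7, 5.79 and 8.84 CPM, against 4.30 to 10.3 (median 6.70), with 0.50 (SE 0.283, edgeR adjusted p = 0.616). As in HMGCS1 row LOC117404083, pairs 1+5 and 2+6 were above all low-yield libraries in both, and the other pairs lay within the range of low yield. Over all tested genes, pairs 1+5 and 2+6 were both above the other pairs in 31.4%. The share in which they were also above every low-yield library was not counted. The second rows of these proteins did not share this order. OSBPL2 LOC131696505 had pairs 1+5 and 2+6 at 26.5 and 27.3 CPM, within the low-yield range of 17.8 to 39.3. Its log2 fold change was 0.14 (SE 0.244). OSBPL5 LOC117434452 had its lowest value of all samples in pair 1+5, at 1.89 CPM, and a log2 fold change of -0.07 (SE 0.432).

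The most negative value belonged to OSBPL10 (LOC117400437) and rested on a single library. The pairs had 2.58, 2.92, 2.57 and 3.16 CPM, and low yield ran from 0.820 to 35.8 (median 3.20). Low-yield 2 alone was at 35.8 CPM, while the other 7 libraries were at 4.25 or less. The log2 fold change of -1.31 (SE 0.866) was -0.01 without low-yield 2 and 0.09 without low-yield 2 and 5. This row held 69.7% of the counts of both OSBPL10 rows in low-yield 2 and 3.77% to 26.3% in every other sample.

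The other oxysterol-binding rows that were named by rule lay on the lower side. OSBPL7 (LOC117433230) was at 1.72, 1.52, 2.54 and 1.80 CPM in the pairs and 1.22 to 6.65 (median 2.65) in low yield (log2 fold change -0.81, SE 0.495). OSBPL11 (LOC117408441) was at 9.12, 12.4, 18.8 and 21.1 CPM, and at 13.8 to 25.3 (median 19.4) in low yield (-0.37, SE 0.264). OSBPL9 (LOC117407002) was at 21.9, 21.4, 9.18 and 20.5 CPM, and at 15.3 to 26.0 (median 22.2) in low yield (-0.23, SE 0.258). Pairs 1+5 and 2+6 were below every low-yield library for OSBPL11, whose value was -0.18 without pair 1+5. Pair 3+7 was below every low-yield library for OSBPL9, whose value was 0.00 without that pair. How often such orders occur over all genes was not counted. The OSBPL9 row LOC117407002 overlaps a gene on the other strand. The second rows of OSBPL7 (LOC117435157), OSBPL11 (LOC117426993) and OSBPL9 (LOC117416835) had log2 fold changes of -0.01, 0.01 and -0.01.

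OSBP1, the founding member that exchanges cholesterol for a phosphoinositide at the Golgi, had 2 rows of nearly equal counts. LOC117410073 made up 43.1% to 55.7% of the counts of both rows in all samples. Both were low in pair 3+7, at 7.85 and 9.02 CPM, against 19.9 to 30.0 CPM in the other pairs. The 18 oxysterol-binding rows other than the 6 given sample by sample had log2 fold changes between -0.54 and 0.75, and their groups overlapped.

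Among the other rows, the farnesyltransferase subunit alpha (FNTA, LOC117420607) was the member with the smallest p. FNTA is the subunit shared by the enzymes that attach farnesyl or geranylgeranyl groups to proteins, and it uses the prenyl products of the route without making sterol. It was at 62.2, 67.1, 49.8 and 49.3 CPM in the high-yield pairs and at 30.9 to 45.3 (median 38.7) in low yield. All pairs were above all low-yield libraries, which held for 1 of the 65 members and for 0.4% of all tested genes. All pairs lay below all low-yield libraries in 0 members (0.233% of all genes), and groups were apart in either direction in 0.633% of all genes. The means were 57.1 ± 8.98 (SD, n = 4) and 38.6 ± 5.02 (SD, n = 8). The log2 fold change was 0.56 (SE 0.163, unadjusted p = 0.00373), the edgeR adjusted p was 0.574, and the difference did not pass.

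The second FNTA row (LOC117408744) was at 14.98, 12.9, 12.5 and 7.18 CPM in the pairs and 7.61 to 13.2 (median 9.79) in low yield, with a log2 fold change of 0.24 (SE 0.247). The beta subunit (FNTB), which completes the farnesyltransferase, lay on the other side of 0 in both rows. LOC117421913 was at 22.7, 30.7, 40.6 and 47.6 CPM in the pairs and 16.4 to 77.4 (median 41.1) in low yield, with a log2 fold change of -0.34 (SE 0.358). Both FNTB rows overlapped a gene on the other strand and were lowest in low-yield 5.

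COX10 (LOC117423004), which farnesylates heme for cytochrome oxidase, was at 13.2, 14.1, 12.9 and 11.5 CPM against 10.3 to 19.1 (median 16.2), with -0.25 (SE 0.21). It did not pass the test, and its groups overlapped. The 2 rows described as presqualene diphosphate phosphatase (PSDP in the plots, LOC117971259 and LOC117413640) carried a pathway entry of a different enzyme in the table, so their identity is uncertain. They were at 9.56, 6.26, 3.90 and 3.17 CPM and at 2.05, 1.75, 0.947 and 1.31 CPM in the pairs, with log2 fold changes of 0.36 (SE 0.398) and 0.18 (SE 0.491) that were 0.00 and 0.01 without pair 1+5. LOC117971259 also overlaps another gene on the same strand.

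For the proteins with 2 rows described here, the less abundant row's share of the counts overlapped between the groups in every case. For PMVK the overlap was narrow, at 25.4% to 27.9% in the pairs and 27.8% to 40.9% in low yield. Sturgeons descend from an ancestor with a doubled genome and keep many genes in duplicate. No pair of rows lay on the same sequence of the assembly. For OSBP1 and FDPS the 2 rows were not both on chromosome sequences, and whether they are separate copies was not tested. Reads shared by near-identical copies may have been split or lost by the authors' counting, which is not given in the sources used here, so these shares are uncertain. The shares are of counts and were not corrected for length, so they are read across samples only. Near-equal shares with a narrow span were seen for OSBP1 (43.1% to 55.7%), FNTB (40% to 52.9%) and INSIG2 (36.3% to 50.1%). Among the proteins with at least 50 counts in every sample, the shares moved most for OSBPL10, INSIG1 (15.3% to 69.1%) and OSBPL5 (14% to 67.3%).

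**Figure D4:**
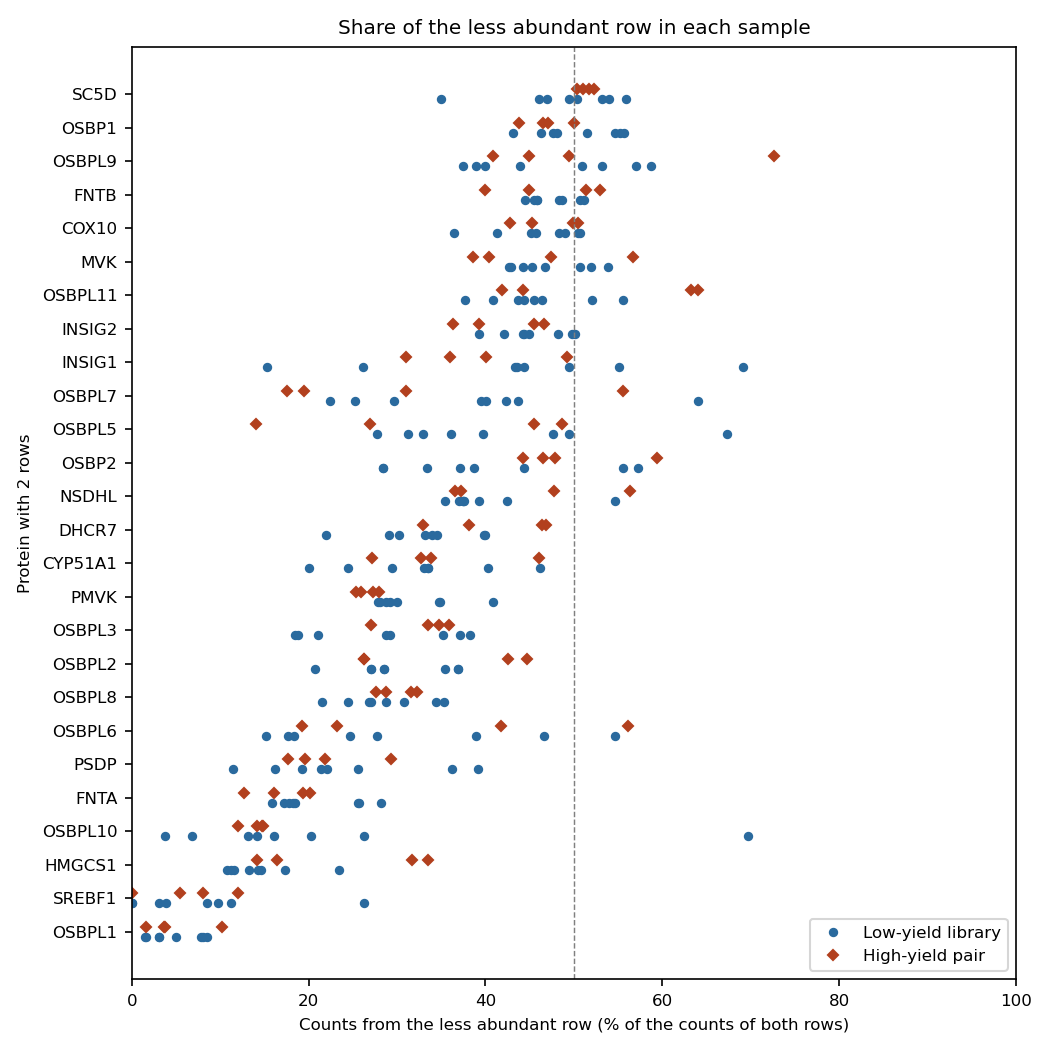
For 26 proteins with 2 rows and at least 50 counts in every sample, the share of the less abundant row in the counts of both (x axis, %) is shown for each high-yield pair (red diamonds) and low-yield library (blue circles), with a line at 50%. The groups overlap for every protein shown, HMGCS1 has 2 pairs at 31.7% and 33.5% above the low-yield range of 10.8% to 23.4%, and OSBPL10 has 1 low-yield library at 69.7%.

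A list of other genes of sterol handling, not chosen by the rule, held 43 rows, of which 37 were tested. None passed the edgeR test, and their median log2 fold change was -0.14, with 11 above and 26 below 0. Unadjusted p fell below 0.05 in 8 rows (21.6%, against 8.52% of all tested genes), with edgeR adjusted p from 0.574 to 0.581. Of these, 2 were higher in high yield (5.18% of all genes) and 6 lower (3.35%). The list was chosen with earlier results of these data known, and rows of one protein are not independent. These shares therefore carry no test. Both rows of TM7SF2, a reductase that follows lanosterol demethylase, were among the 6 lower rows. The row tm7sf2 was at 0, 0.0752, 0.204 and 0.167 CPM in the pairs and 0.246 to 1.58 (median 1.13) in low yield, so its groups did not overlap (all pairs lower, 0.233% of all genes). Its count of 0 in pair 1+5 allows up to 0.0264 CPM. The row LOC131730551 was at 0.387, 0.132, 0.324 and 0.111 CPM, and at 0.248 to 3.04 (median 2.02) in low yield. The log2 fold changes were -3.16 (SE 1.04) and -2.75 (SE 0.78), and they were -3.29 and -2.80 without low-yield 2 and 5.

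The lamin B receptor (lbr), which carries the same reductase activity, was at 4.88, 2.79, 5.05 and 4.92 CPM in the pairs and 4.60 to 16.9 (median 10.3) in low yield, with a log2 fold change of -1.08 (SE 0.38). The pairs lay at the bottom of the low-yield range. The remaining lower rows with an unadjusted edgeR p below 0.05 were of sterol efflux genes and their regulator. They were ABCG1 (LOC117405259, -1.27, SE 0.477), the oxysterol receptor LXR (LOC117432029, -0.98, SE 0.444) and ABCA1 (LOC131725387). The latter had 0 counts in all 4 pairs, which allows at most 0.036 CPM in any of them, 0 in 3 low-yield libraries and its highest values, 5.28 and 3.30 CPM, in low-yield 2 and 5. The LXR row was also highest in those libraries, at 8.11 and 9.46 CPM, and its value without them was -0.57. The second ABCG1 row (LOC117962464) had a log2 fold change of -0.53 (SE 0.593). The other ABCA1 rows, LOC117420799 and LOC117408622, had -3.02 (SE 1.445) and -1.37 (SE 0.798). Without low-yield 2 and 5 these were -0.38 and 0.07.

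On the higher side, NPC2 (LOC117417240), which hands cholesterol on inside the lysosome, was at 52.7, 55.7, 73.7 and 56.0 CPM in the pairs and 19.6 to 51.2 (median 40.4) in low yield. All pairs were above all low-yield libraries (0.4% of all genes), and the log2 fold change was 0.62 (SE 0.224). The second NPC2 row (LOC117974023) was at 20.5 to 35.6 CPM in the pairs and 8.95 to 35.5 in low yield. Its groups overlapped, and its log2 fold change was 0.64 (SE 0.324). The low-density lipoprotein receptor, which takes up cholesterol from the blood, had log2 fold changes of -0.36 (SE 0.391) and -0.05 (SE 0.351) in its rows LOC117966839 and LOC117402032. In all of these rows the edgeR adjusted p was 0.574 or more.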

How the data were processed

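The 16 libraries hold ovary RNA, and their labels put 8 in each yield group. Adapters were trimmed with cutadapt 1.9, per the submitters' processing notes. For aligner, counter, genome build and strand setting, names or versions were not given in the sources used here. Per the file headers, the deposited table holds read counts per gene and the authors' FPKM (fragments scaled to length and to mapped fragments). The length implied by the ratio of counts to FPKM, taken as the median over libraries, did not follow the gene. It was 2230 bp in the median over transfer RNA rows, whose genes span 72 bp in the median, and it was longer than the gene in 10.1% of mRNA rows. FPKM was therefore used only for the named-gene rule and as an alternative. The choice of named rows thus depends on these implied lengths. In INSIG1, for example, the named row LOC131736982 implied 212 bp and the row LOC117394940, not named, 4380 bp.

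The members, the other gene lists and the summing of near-identical pairs were chosen with earlier results of these data known. Summed counts were filtered with filterByExpr, scaled by TMM and tested two-sided with edgeR 4.0.16 (quasi-likelihood F test, Benjamini-Hochberg over all tested genes, threshold 0.05) in R 4.3.3. SE is that implied by the F statistic. The p-values judge the difference between groups against the spread between samples within them. Precision is set by 4 against 8 samples and by depth, and a floor of 3 counts stands for a count of 0 (counting error only). Members were named by rule: in each enzyme or sensor kind the row with the highest mean FPKM and every row of at least 1, and in the other roles the 4 rows with the highest FPKM and the 2 with the smallest p. The 5 smallest p in each direction were added. Some rows enter the counts but are not reported here. Alternatives were DESeq2 1.42.0, limma 3.58.1 on log2(FPKM + 1) or log2(FPKM + 0.1), other scalings and filters, unsummed libraries with and without a replicate block, and leaving out samples. The test was tried on simulated data. A few rows outside the rule are named in the pathway list because their unadjusted p was below 0.05, which was seen first.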

Additional observations from a re-analysis of the deposited data

Results flagged for a closer look

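Of 72 groups of CPM values (36 named members, 2 yield groups), 6 held a sample far from the others by Dixon's ratio. Independent, normally distributed values pass its limit in about 1 of 20 groups. Whether CPM values follow that distribution was not tested, and some members were named for a small p. The count of 6 is therefore not read against that rate. In low yield, HMGCS1 (LOC117404083) was at 7.65 CPM in library 8, with the others at 3.35 to 4.55. OSBPL10 (LOC117400437) was at 35.8 CPM in library 2, with the others at 0.820 to 4.25.

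Among the high-yield pairs, 3 of the 4 distant values came from pair 3+7. There fdft1 was at 29.8 CPM against 18.6 to 20.1, srebf2 at 0.623 against 1.11 to 1.16, and OSBPL9 (LOC117407002) at 9.18 against 20.5 to 21.9. MVK (LOC131739379) was at 8.78 CPM in pair 1+5, against 14.2 to 15.01.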

How the results depend on the processing

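The count of members called stayed at 0 under every alternative run, with a lowest adjusted p of 0.0712 (edgeR, 16 libraries unsummed). Over all genes the count was 0 except for 85 with DESeq2 and 16 with the 16 libraries unsummed. Of 786 alternative log2 fold changes of the 36 named members, 752 stayed within 1 SE and kept their sign or rounded to 0.00. Another 11 kept their sign beyond 1 SE, and 23, in 11 members, changed sign. None of the changes of scaling turned a sign. Without low-yield 2 and 5 the new values were -0.02 for HMGCS1 LOC117973254, -0.02 for IDI1 LOC117400346, -0.23 for NSDHL LOC117411886, -0.13 for insig2 and 0.09 for OSBPL10 LOC117400437.

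Leaving out 1 sample at a time, the sign turned in the members below. Their main values, from -0.27 to 0.30, were smaller in size than their SE. The ranges were -0.17 to 0.24 for LOC117973254, -0.03 to 0.33 for LOC117400346, -0.51 to 0.72 for FDPS LOC117970412 and -0.22 to 0.10 for fdft1. They were -0.76 to 0.01 for CYP51A1 LOC117435357, -0.13 to 0.22 for LOC117411886, -0.21 to 0.07 for SC5D LOC117397270, -0.64 to 0.02 for DHCR7 LOC117435021 and -0.22 to 0.07 for INSIG2 LOC117400217. The cause was not tested.

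The main test used no pairing by replicate number. Same-numbered libraries had correlations from -0.262 to 0.459, and 3 of 8 matched their own number best. Near-identical high-yield libraries carry different numbers, so this check cannot decide whether the numbers pair the samples. With the replicate block on the 16 libraries, 0 genes and 0 members were called, and 4627 genes had an unadjusted p under 0.05, against 5484 without it. FDPS LOC117970412 was then at -0.49. Depth limits the lowest rows of FDPS, SCAP and SREBF1 most, which had 0 counts in some samples. In the alternatives that leave out a high-yield pair, 3 such samples remained.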
